A study of Mus musculus with 5 samples.

Results

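Nlgn1, Sorcs1, Adamtsl1, Rgs6, Npas3, Trpm3 and Csmd1 are 7 long genes of cell adhesion, synapses, signalling and transcription that were read in Müller glia (MG), the main glial cells of the retina. They were chosen by symbol from the 33696 genes of the deposited lists, from their expression by cell type and by the ribosomal share of MG in these same cells. Both of those contrasts are therefore described without a test, and tests are given only for the comparison between the viral vectors, which the choice did not use. The members were found in every gene list, and all 7 passed the filters on low counts used below.

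The cells came from Glast-CreERT2; Rosa26-Ai65 mice on a C57BL/6J background, male and female, aged 12 to 20 weeks, that had been given tamoxifen and an adeno-associated virus (AAV) of the ShH10 capsid. In the mKate2 AAV group, the control, a Gfap promoter drove the fluorescent protein mKate2 together with FlpO recombinase, and in the Yap5SA AAV group it drove Yap5SA, an activated form of the transcriptional coactivator YAP, together with FlpO. Cre in cells with Glast promoter activity and FlpO from the AAV together switched on tdTomato, so that both groups carried the same Cre, reporter and tamoxifen and both received FlpO. They differed in the mKate2 or Yap5SA cassette and also in dose, since the mKate2 AAV was injected at the higher titre, and cassette and dose cannot be told apart. Cells were sorted 56 days after injection from 16 pooled retinas with mKate2 AAV and 21 pooled retinas with Yap5SA AAV, so single animals cannot be told apart. The study names tdTomato+ cells as those sequenced, whereas the sorting protocol lists a tdTomato- fraction as well, and whether every library holds sorted tdTomato+ cells alone is not settled by these sources.

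The files hold counts of unique molecular identifiers (UMIs) per gene and cell for 2 libraries of mKate2 AAV and 3 of Yap5SA AAV, in all 5. Replicates 1 and 2 of Yap5SA AAV share 1361 cell barcodes, and a chi-square of 0.426 per degree of freedom put the difference of their counts below sampling noise, so they were counted as 1 sample by leaving out replicate 2. The other 4 libraries held 15293 barcodes, of which 10749 had at least 1000 UMIs and at most 15% mitochondrial UMIs. MG were the 6540 of these cells in which Glul, Rlbp1, Slc1a3, Clu and Aqp4 together made up at least 0.5% of UMIs, and each library held 803 to 2898 of them at a median of 2918.5 to 10778 UMIs. Where 4 values are given without names, they are in the order mKate2 AAV replicate 1, mKate2 AAV replicate 2, Yap5SA AAV replicate 1, Yap5SA AAV replicate 3. MG made up 89.4%, 51.4%, 71.3% and 58.1% of the cells kept. All 13 MG markers on a list that includes those 5 genes were found in the MG of every library, among them Sox9 at 435 to 773 CPM, the UMIs of a gene scaled to a common total, and Kcnj10 at 82.4 to 127 CPM. The gate also took in 93 of 96 cells of a cluster with pigment epithelium markers, which expresses Rlbp1 as well. Clusters that marker lists left without a name held 2814 gated cells. By library these were 461, 2055, 198 and 100 of 1498, 2898, 803 and 1341 MG, so the make-up of MG differed between libraries.

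Neuroligin 1, the product of Nlgn1, is a postsynaptic adhesion protein that binds presynaptic neurexins, and SORCS1 is a sorting receptor of the VPS10 family that controls the surface delivery of synaptic proteins, neurexins included. ADAMTSL1 is a secreted matrix protein without protease activity, RGS6 speeds the shut-off of G protein signals, NPAS3 is a bHLH-PAS transcription factor, TRPM3 is a calcium-permeable cation channel, and CSMD1 is a transmembrane protein that inhibits complement. MG span the whole thickness of the retina, wrap synapses and neurons, and take up transmitters and potassium. In cells in general, ribosomal protein genes are short and give abundant cytoplasmic messages, while very long genes consist mostly of introns.

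The genes stand at the far end of the length distribution. In GENCODE vM39 on GRCm39, the build named for the files, Csmd1 spans 1643 kb of chromosome 8, Adamtsl1 914 kb of chromosome 4, Nlgn1 906 kb of chromosome 3, Trpm3 856 kb and Sorcs1 535 kb of chromosome 19, and Npas3 824 kb and Rgs6 574 kb of chromosome 12. Sorcs1, the shortest of them, is longer than 99.1% of the 21431 protein-coding genes of the files, whose median span is 19.2 kb. Exons cover between 0.857% of Npas3 and 2.88% of Trpm3, compared with a median of 25.0% over coding genes. The introns hold runs of at least 15 A on the transcribed strand, from 8 in Rgs6 to 40 in Csmd1. The 3' kit starts its copies from oligo-dT, and whether reads in introns were counted is not given in the sources used here. The longest intronic run of the genes with the highest and the steepest values in MG is shown with 20 bases on either side, 5' to 3' on the strand of the gene, with the run in capitals.
Trpm3 (GRCm39 chr19:22882363-22882427, + strand): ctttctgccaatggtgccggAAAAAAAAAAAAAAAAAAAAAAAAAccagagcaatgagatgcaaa
Nlgn1 (GRCm39 chr3:25846332-25846409, - strand): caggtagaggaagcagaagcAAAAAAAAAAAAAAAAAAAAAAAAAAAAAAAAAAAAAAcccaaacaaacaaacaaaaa
Adamtsl1 (GRCm39 chr4:86251829-86251918, + strand): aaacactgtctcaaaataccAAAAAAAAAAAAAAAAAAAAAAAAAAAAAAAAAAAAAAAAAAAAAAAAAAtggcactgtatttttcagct
The runs shown have 25, 38 and 50 A. Over the whole span the 7 genes hold 1.57 runs per 100 kb in Rgs6 to 3.15 in Trpm3, a range that lies on both sides of the median of 2.26 for coding genes of at least 500 kb. Other genes overlap them on the same strand (Gm37573 in Nlgn1 and Sh3gl2 in Adamtsl1) or on the opposite strand, and since strand use in counting is not given either, UMIs in those stretches are uncertain.

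The AAVs differ in a coactivator that works through TEAD factors, so the 250 bases before the start of each gene's canonical transcript were searched for GGAATG, the core of the TEAD motif, on both strands. It was found in Trpm3, at 2 places, and in Npas3, at 1, and not in this window of the other 5 genes. Of all 21431 coding promoters of that length, 12.1% hold it. Both windows are shown with the motif in capitals, 5' to 3' on the strand of the gene, where CATTCC is GGAATG on the other strand.
Trpm3 (GRCm39 chr19:22669900-22670149, + strand): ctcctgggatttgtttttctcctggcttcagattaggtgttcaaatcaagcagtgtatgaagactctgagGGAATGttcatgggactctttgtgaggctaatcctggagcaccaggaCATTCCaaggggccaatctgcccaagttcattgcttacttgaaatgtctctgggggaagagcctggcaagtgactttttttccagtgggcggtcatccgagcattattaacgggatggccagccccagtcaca
Npas3 (GRCm39 chr12:53294690-53294939, + strand): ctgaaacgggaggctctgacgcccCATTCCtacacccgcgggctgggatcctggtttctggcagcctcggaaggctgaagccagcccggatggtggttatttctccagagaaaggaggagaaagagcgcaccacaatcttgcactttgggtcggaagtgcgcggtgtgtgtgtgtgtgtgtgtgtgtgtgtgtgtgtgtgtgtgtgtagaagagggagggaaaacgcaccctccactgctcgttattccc
A match is a description of these letters and not a site of binding. For Trpm3, Adamtsl1 and Rgs6 the start used lies inside the gene. Their spans begin at chr19:22116410, chr4:85432409 and chr12:82635066, and levels per 100 kb use the whole span. An intron of Trpm3 also carries the hairpin of miR-204 (GRCm39 chr19:22727969-22728036, + strand), a microRNA known from pigment epithelium and lens. The hairpin shares the host's strand. Its mature 5' form in the RefSeq table is shown, with bases 2 to 8, the seed, in capitals.
mmu-miR-204-5p: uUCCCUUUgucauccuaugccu
Its own level was not measured by these counts of polyadenylated transcripts.

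Of the 7 genes, 6 were abundant in the MG of every library, and Trpm3 was the highest by CPM and also per length. Trpm3, the cation channel, had 2399 and 1812 CPM with mKate2 AAV and 2513 and 2349 CPM with Yap5SA AAV. It ranked 20th among all genes in the MG of mKate2 AAV replicate 1. Nlgn1 had 1205 and 1606 CPM with mKate2 AAV and 1658 and 2166 CPM with Yap5SA AAV. The lowest library of each group was the one with the most UMIs per cell for Nlgn1, at 1205 and 1658 CPM. Rgs6 had 1090 and 1016 against 1078 and 1543 CPM, and Sorcs1 had 720 and 852 against 819 and 1169 CPM. Adamtsl1, the matrix protein, had 767 and 1050 CPM with mKate2 AAV and 886 and 1406 CPM with Yap5SA AAV. Npas3 was lower, at 344 and 391 against 442 and 440.0 CPM.

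Per 100 kb of gene span, Trpm3 had 265 ± 36.4 CPM (SD, n = 4 libraries), Rgs6 206 ± 42.4, Nlgn1 183 ± 43.5, Sorcs1 166 ± 36.3, Adamtsl1 112 ± 30.4 and Npas3 49.1 ± 5.63. Neighbours in this order from Trpm3 to Sorcs1 lay within the spread of their libraries, whereas Npas3 lay below the range of Adamtsl1, which was 83.9 to 154. Csmd1, the complement inhibitor, stood apart at 2.47 ± 2.74 CPM per 100 kb. Its levels of 24.4 and 107 CPM with mKate2 AAV and 25.1 and 6.13 CPM with Yap5SA AAV spanned a wider range of folds than those of any other of the 7 genes.

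**Figure D1:**
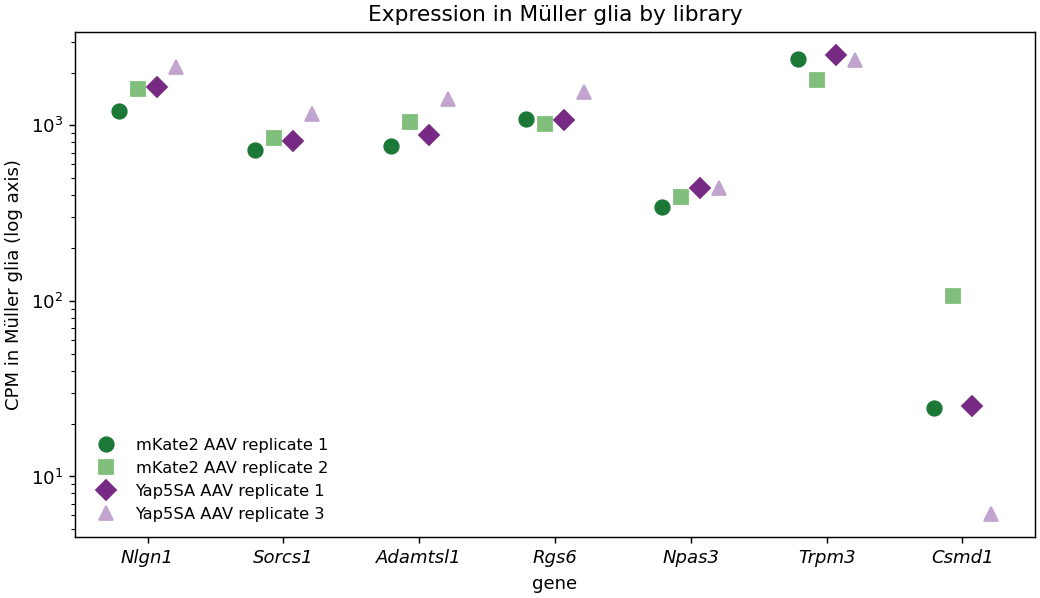
CPM of the 7 genes in MG on a log axis, with 1 point for each of the 4 libraries (green, mKate2 AAV; purple, Yap5SA AAV). Trpm3 is highest, between 1812 and 2513 CPM, and Csmd1 is lowest and most scattered, between 6.13 and 107 CPM.

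The UMIs of Csmd1 in MG sat in few cells. In mKate2 AAV replicate 1 only 49 of 1498 MG had a Csmd1 UMI, and the 10 cells with most held 85.9% of its UMIs. The 10 cells with most held 40.1% in mKate2 AAV replicate 2, 60.7% in Yap5SA AAV replicate 1 and 60.4% in Yap5SA AAV replicate 3. For the other 6 genes the 10 cells with most held between 5.81% and 15.6%. Such a share rises when a gene has few UMIs. Csmd1 had 290, 1987, 242 and 48 UMIs, and the other genes had 3447 to 33681 in a library. In Yap5SA AAV replicate 3 no MG had more than 5 Csmd1 UMIs, so its share there does not show an uneven spread.

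**Figure D2:**
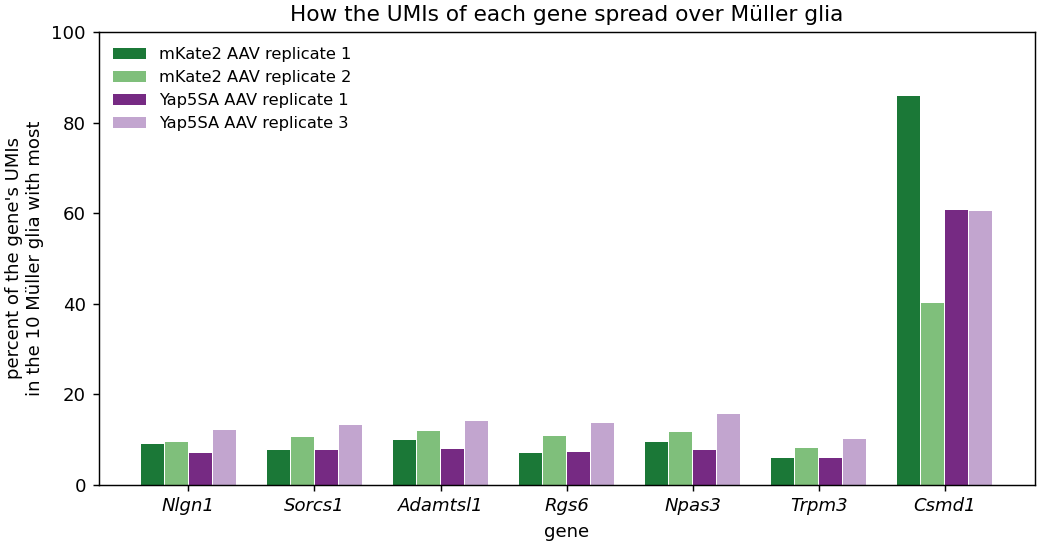
Bars show the percent of each gene's UMIs in MG that lie in the 10 cells with most of that gene, for each of the 4 libraries. For Csmd1 the bars reach 40.1% to 85.9%, and for the other 6 genes none passes 15.6%.

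Cells with at least 10 Csmd1 UMIs numbered 4, 53, 6 and 0. They were deep, with a median of 31468 UMIs against 2878 UMIs for the other MG of mKate2 AAV replicate 2. There, cells with at least 10 UMIs of any other of the 7 genes were deep too, with medians of 22361 to 25996 UMIs. In that library the cells with at least 10 Csmd1 UMIs had 3031 CPM of 10 rod markers against 743 CPM in the other MG. They had 498 against 480 CPM of 10 amacrine markers, and their gate genes came to 13770 against 18406 CPM. The rod markers went the other way in mKate2 AAV replicate 1, at 21.1 against 132 CPM, and in Yap5SA AAV replicate 1, at 7.29 against 10.7 CPM. Cells of such depth can hold more than 1 cell, no doublet caller was run, and the part of mixed cells in the Csmd1 level was not tested. Without the 57 MG of over 40000 UMIs, a limit chosen after seeing the data, the log2 difference of Csmd1 between AAVs went from -2.25 to -1.75.

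Between the AAVs no difference in any of the 7 genes could be called against the spread between libraries. Counts of MG were summed per library and tested over 15285 genes by edgeR's quasi-likelihood test, where 0 genes, 0% of those tested, passed an adjusted p of 0.05, none of the 7 genes among them. At an unadjusted p under 0.05 there were 30 genes by edgeR and 52 by DESeq2, which also called 0. Both counts are below the share that this limit passes when no gene differs. The tests were thus conservative, and 0 calls do not show that the groups were alike. With Cell Ranger version as a term, edgeR gave 151 such genes and also called 0. The largest difference was that of Csmd1, which had a log2 fold change (Yap5SA over mKate2 AAV) of -2.25 with a standard error of 1.00 (edgeR, adjusted p = 1.00).

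The log2 fold change of Nlgn1, the neurexin partner, was 0.33 with a standard error of 0.43, and that of Sorcs1 was 0.23 with one of 0.39. For Rgs6 it was 0.22 (standard error 0.38), for Adamtsl1 0.22 (0.45), for Npas3 0.15 (0.30) and for Trpm3 0.12 (0.38). Their adjusted p-values were 1.00 by edgeR. The median of all genes was -0.03, and in a simulation of this comparison at the measured dispersion a 2-fold change in 200 genes was recovered in 0% of them, an 8-fold change in 79%. With 2 libraries a group an exact permutation test cannot give a p under 0.333.

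The CPM of the AAV groups did not overlap for Nlgn1 and Npas3, which were higher in both Yap5SA AAV libraries. That is 2 of the 7 genes, beside 11.9% of all genes tested that were higher with Yap5SA AAV without overlap. None of the 7 was lower without overlap, beside 3.49%. The libraries were processed with Cell Ranger 8.0.0 or 9.0.1 according to their headers, and each version holds 1 library of each AAV. Within version 8.0.0 the log2 ratio of Yap5SA over mKate2 AAV was 0.46 for Nlgn1 and 0.36 for Npas3, and within version 9.0.1 it was 0.43 and 0.17. For Rgs6 these ratios were -0.02 and 0.60, and for Trpm3 0.07 and 0.37. Csmd1 had 0.04 within version 8.0.0 and -3.33 within version 9.0.1, and without mKate2 AAV replicate 2 its fitted difference was -0.64.

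MG expressed 6 of the genes at a higher mean level than any of the 6 other cell types compared, and Csmd1 was the exception. Cell types other than MG were clusters named by marker lists, with at least 30 cells in a library. Cells that passed the MG gate were left out of these types, except in pigment epithelium, which kept them. Amacrine, bipolar, rod, cone and pigment epithelium cells were compared in mKate2 AAV replicate 2 and Yap5SA AAV replicate 3, and microglia and macrophages in all 4 libraries. Microglia and macrophages had low levels, 34.6 to 168 CPM of the 7 genes together, and MG had 6551 to 9079 CPM. Rods had 64.1 and 72.9 CPM of the 7 genes together, and cones at most 117 CPM.

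The genes split among the neurons. Nlgn1 had 993 and 1263 CPM in amacrine cells and 1087 and 931 CPM in bipolar cells, beside 1606 and 2166 CPM in the MG of the same libraries. Sorcs1, the sorting receptor, had 645 and 407 CPM in amacrine cells but 55.7 and 28.4 CPM in bipolar cells. Adamtsl1 had the reverse, with 87.1 and 32.6 CPM in amacrine cells and 1121 and 774 CPM in bipolar cells, a range that overlapped that of MG. Rgs6 had 162 and 408 CPM in amacrine cells and 13.9 and 2.84 CPM in bipolar cells, where its relatives of the same subfamily, Rgs7 and Rgs11, are the ones known to act. Npas3 had 78.2 and 137 CPM in amacrine and 149 and 192 CPM in bipolar cells, and at most 11.2 CPM in the remaining types.

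Trpm3 was the gene that pigment epithelium shared with MG. It had 1067 and 1641 CPM in the pigment epithelium cells, of which 29 of 32 and 60 of 60 also passed the MG gate, 804 and 1030 CPM in amacrine cells and 824 and 697 CPM in bipolar cells. The other 6 genes had at most 11.4 CPM in pigment epithelium. Csmd1 was an amacrine gene here, with 1122 and 803 CPM in amacrine cells, 35.1 and 35.5 CPM in bipolar cells and 107 and 6.13 CPM in the MG of those libraries.

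At 2-fold or more in every library compared, with 5 CPM added, 6 of the 7 genes were higher in MG than in microglia and macrophages (20.4% of all genes), rods (19.5%) and cones (17.5%), and Csmd1 was not among them. The 6 that were higher than in pigment epithelium (25.1% of all genes) included Csmd1 and left out Trpm3. Adamtsl1, Rgs6, Npas3 and Trpm3 were higher than in amacrine cells (16.2%), and Sorcs1, Rgs6, Npas3 and Trpm3 were higher than in bipolar cells (17.4%). Csmd1 was the only 1 of the 7 that was lower in MG than in another type by that measure, in amacrine cells (18.1% of all genes). Lower levels by that measure were found for 9.87% of all genes against microglia and macrophages, 13.9% against rods, 15.8% against cones, 17.2% against bipolar cells and 7.74% against pigment epithelium, and for none of the 7. These contrasts chose the genes, so nothing is read from the counts.

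**Figure D3:**
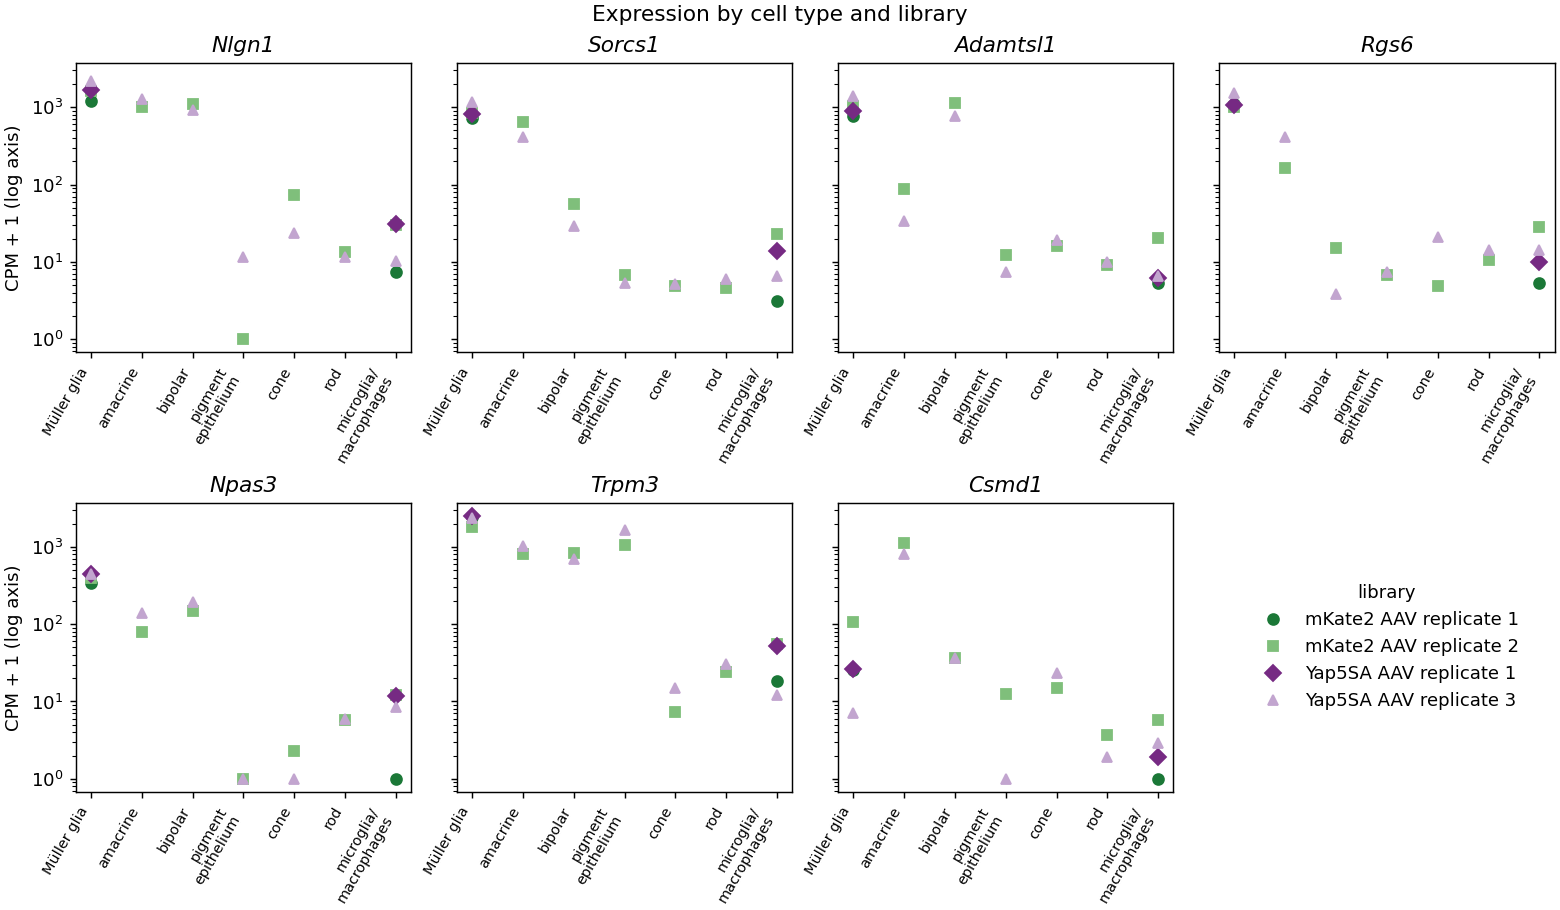
CPM + 1 on a log axis for each gene in MG and 6 other cell types, with 1 point a library (green, mKate2 AAV; purple, Yap5SA AAV). Trpm3 is high in pigment epithelium as well as MG, at 1067 and 1641 CPM, and Csmd1 is highest in amacrine cells, at 1122 and 803 CPM.

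Depth differed between cell types, with a median of 23017 UMIs in amacrine cells, 4011.5 in microglia and macrophages and 2918.5 in MG of mKate2 AAV replicate 2. After each cell had been thinned to 1000 UMIs, a Trpm3 UMI was found in 69.3% and 43.2% of the MG with mKate2 AAV and in 75.5% and 48.6% with Yap5SA AAV. In microglia and macrophages, which set the background, the share in mKate2 AAV replicate 2 was 3.33% of 930 cells (exact Clopper-Pearson 95% interval 2.28 to 4.70, counting error only). Nlgn1 was found in 40.4%, 17.0%, 56.2% and 19.5% of the MG, against 2.47% of those microglia and macrophages. The shares in MG were above that background in each library. Csmd1 was found in 0.801%, 2.14%, 1.37% and 0.298% of MG, beside 0.323% of the microglia and macrophages (interval 0.0666 to 0.940) and 32.9% of the amacrine cells of mKate2 AAV replicate 2. Before thinning, 69.3% of the MG of mKate2 AAV replicate 2 had a Trpm3 UMI and 26.3% an Nlgn1 UMI.

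Among MG, the level of 6 of the genes fell steeply as the share of UMIs from 82 ribosomal protein genes rose. MG with a ribosomal share under 1% had 14746 and 18178 CPM of the 7 genes together with mKate2 AAV and 15502 and 19756 CPM with Yap5SA AAV. MG with a share of at least 10% had 998, 989, 1295 and 1020 CPM in the same order. The high end of the range was alike in all 4 libraries. Under 1% the libraries of version 9.0.1, with 92 cells each, were above those of version 8.0.0, with 30 and 36 cells. The libraries also differed in between. At 5 to 10% the 7 genes came to 4927 and 6302 CPM in the libraries of version 8.0.0 and to 1919 and 1174 CPM in those of version 9.0.1.

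Nlgn1 went from 2669 CPM under 1% to 73.3 CPM at 10% or more in mKate2 AAV replicate 1, and from 4451 to 87.9 CPM in mKate2 AAV replicate 2. With Yap5SA AAV it went from 3126 to 186 and from 5121 to 75.7 CPM. Trpm3 kept more of its level, with 4855, 4272, 5113 and 4595 CPM under 1% and 489, 514, 643 and 556 CPM at 10% or more. Rgs6 had 137 to 239 CPM at 10% or more, and Sorcs1, Adamtsl1 and Npas3 had 41.9 to 108 CPM there. In microglia and macrophages Trpm3 had at most 54.8 CPM and Rgs6 at most 27.3 CPM, so MG at the high end of the ribosomal range still stood above those cells for both genes.

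Csmd1 was less regular, with a fall from end to end in 3 of the 4 libraries. It had 32.8, 243, 0 and 17.9 CPM under 1% and 0, 7.78, 4.16 and 2.50 CPM at 10% or more. In Yap5SA AAV replicate 1 it was highest between 2 and 5%, at 29.7 CPM, and no UMI of it was counted in the 36 cells under 1%.

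**Figure D4:**
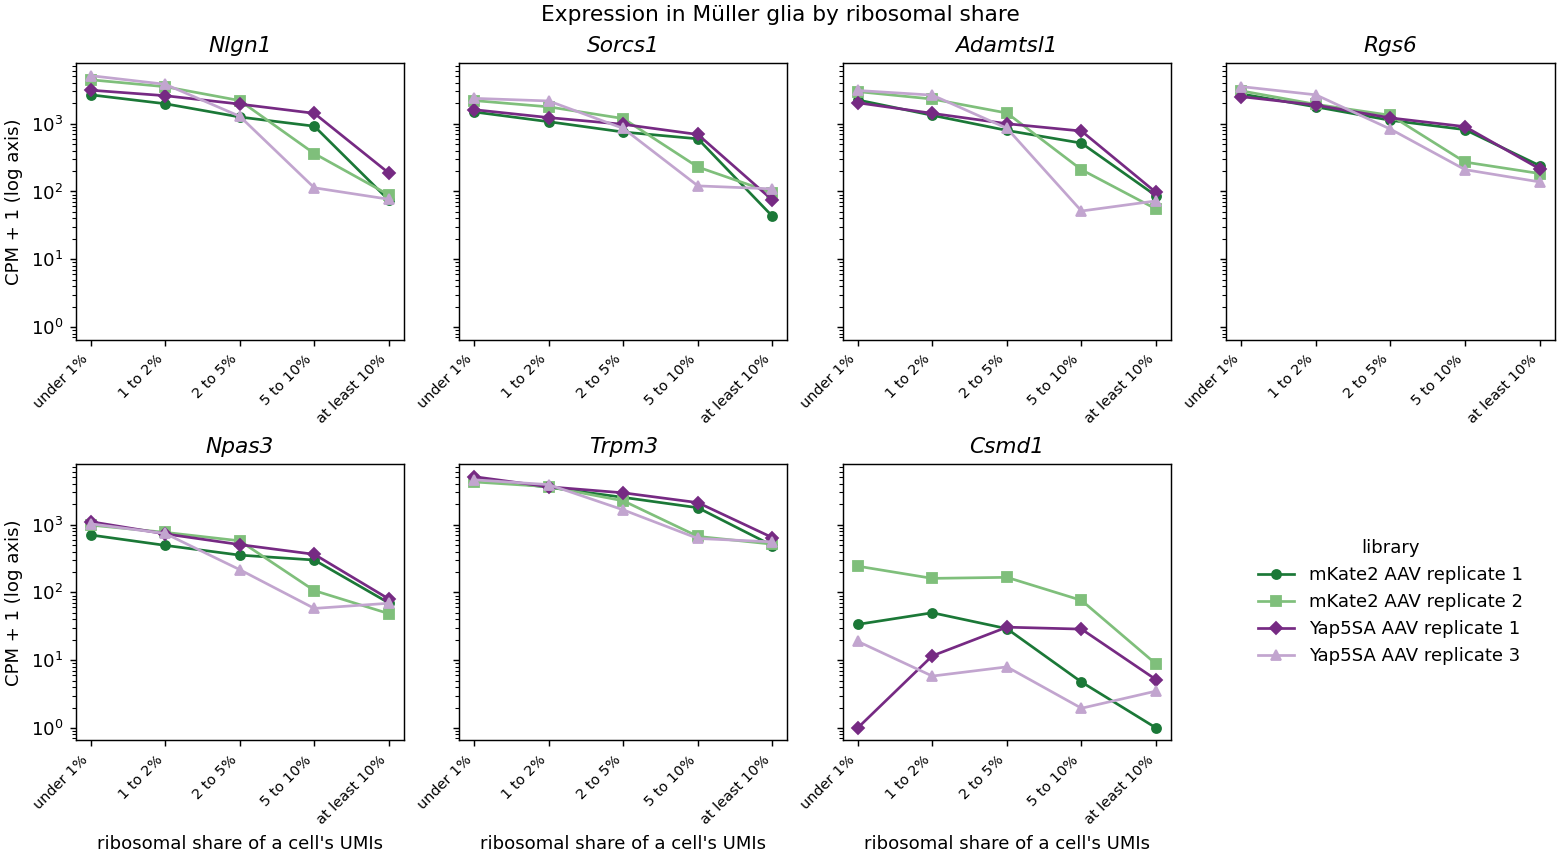
CPM + 1 on a log axis for each gene in MG grouped by the ribosomal share of a cell's UMIs, with 1 line for each of the 4 libraries. For 6 genes all lines fall from the left to the right end, as for Nlgn1 from 2669 to 5121 CPM down to 73.3 to 186 CPM, whereas those of Csmd1 cross.

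The MG of each library were ranked by ribosomal share and split into 3 classes of equal size, of which the low class and the high class are compared. The low class exceeded the high class for all 7 genes in all 4 libraries. On the log2 scale, with 5 CPM added, the difference was 3.40 ± 1.99 (SD, n = 4 libraries) for Adamtsl1, 3.32 ± 2.05 for Nlgn1, 2.72 ± 1.46 for Sorcs1, 2.48 ± 1.21 for Rgs6 and 2.48 ± 1.35 for Npas3. It was 1.88 ± 0.62 for Trpm3 and 1.84 ± 1.71 for Csmd1. The 6 genes other than Csmd1 were at least 2-fold higher in the low class in every library, as were 5.50% of the 9484 genes with enough counts, and 0 of the 7 were so in the high class, beside 3.67%, and the median difference over those genes was 0.39. This contrast chose the genes, and the values describe them.

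The difference was larger in both libraries of version 9.0.1 for the 6 genes other than Csmd1. For Adamtsl1 it was 1.89 and 1.51 in the libraries of version 8.0.0 and 5.46 and 4.74 in those of version 9.0.1. With fixed limits, under 5% against at least 10%, the 7 genes together differed by 3.29 ± 0.52 (SD, n = 4 libraries), where the classes gave 2.52 ± 1.22. In cells of 2000 to 6000 UMIs alone the difference was 2.49 ± 1.10, and in cells thinned to 1000 UMIs it was 2.57 ± 0.39.

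Other properties of the cells moved with ribosomal share. The median depth was 4750.5 to 9748 UMIs in the low classes and 1934 to 4770 UMIs in the high classes. Malat1, a long noncoding RNA kept in the nucleus, had 44909 to 105426 CPM in the low classes and 544 to 46571 CPM in the high classes. Mitochondrial UMIs had medians of 2.50 to 3.58% in the low and 2.14 to 10.4% in the high classes, and in Yap5SA AAV replicate 1 the high class had fewer, 2.14% against 2.84%. The 5 gate genes came to 15941 to 18432 CPM in the low and 12952 to 18236 CPM in the high classes. The part of depth, mitochondrial share and nuclear RNA in the gradient was not tested, beyond the values at matched depth.

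Markers of several other cell types were also higher in the low class. The 5 endothelial markers summed to 1452 to 2524 CPM in the low and 717 to 1266 CPM in the high classes, and the low class was higher in all 4 libraries for them and for the sums of the bipolar, amacrine and pericyte lists. Single markers were less uniform. Of the 5 endothelial markers 4, 5, 3 and 3 were higher in the low class. Cldn5 was at 0 in the low class of both Yap5SA AAV libraries, as was Esam in that of Yap5SA AAV replicate 1. Of 13 bipolar markers 4, 8, 1 and 9 were higher in the low class, and in Yap5SA AAV replicate 1, with 1, the sums were close at 313 and 286 CPM, as they were in mKate2 AAV replicate 1 at 235 and 224 CPM. Of 5 pericyte markers 2 to 5 were higher. The 10 amacrine markers summed to 568 to 765 against 282 to 598 CPM, and 3 to 8 of them were higher in the low class, with Slc32a1 at 0 in at least 1 class of 3 libraries. The sum of the 5 astrocyte markers was the reverse, with 64.6 to 335 CPM in the low and 85.2 to 527 CPM in the high classes. Of these single markers 1, 4, 2 and 3 were higher in the low class, and Pax2 was at 0 in the high class of all 4 libraries.

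Rod, microglial and pigment epithelium markers went in different directions between libraries. The 10 rod markers summed to 9.44 to 1607 CPM in the low and 15.9 to 2623 CPM in the high classes, and the low class was the higher one in mKate2 AAV replicate 2, at 1316 against 328 CPM. The 11 markers of microglia and macrophages summed to 17.3 to 215 CPM in the low and 16.1 to 1129 CPM in the high classes. The 6 pigment epithelium markers reached 6645 CPM in the low class of Yap5SA AAV replicate 3, beside 31.5 CPM in its high class. The part of these cell types in the gradient was not tested, but without gated cells in clusters of another type the difference was 2.54 ± 1.25 (SD, n = 4 libraries) for the 7 genes together and 1.89 ± 0.64 for Trpm3, the gene that pigment epithelium also expresses.

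Cells just under the limit of the MG gate carried the 7 genes as well. In Yap5SA AAV replicate 3 the 45 cells with 0.4 to 0.5% of UMIs from the gate genes had 22870 CPM of the 7 genes together, and the 53 cells with 0.5 to 0.6% had 17080 CPM. In mKate2 AAV replicate 2 these values were 9768 and 5273 CPM, in mKate2 AAV replicate 1 2324 and 2305 CPM, and in Yap5SA AAV replicate 1 2357 and 6394 CPM. The gate therefore cut through cells with high levels of these genes in the libraries of version 9.0.1.

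Genes of long span shared the pattern. Among 150 genes of at least 500 kb the median difference between the low and high class was 1.76, and 45.3% were 2-fold or more higher in the low class in every library. For the 517 genes of 200 to 500 kb the median was 1.35, for those of 50 to 200 kb 0.81, for those of 10 to 50 kb 0.24, and for those under 10 kb -0.41. Against the other genes of at least 500 kb, Adamtsl1 ranked 2nd, Nlgn1 4th, Sorcs1 12th, Rgs6 23rd and Npas3 24th, while Trpm3 at 67th and Csmd1 at 72nd were near the middle. The spans are for whole genes and the ranks describe genes that were chosen for this contrast.

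**Figure D5:**
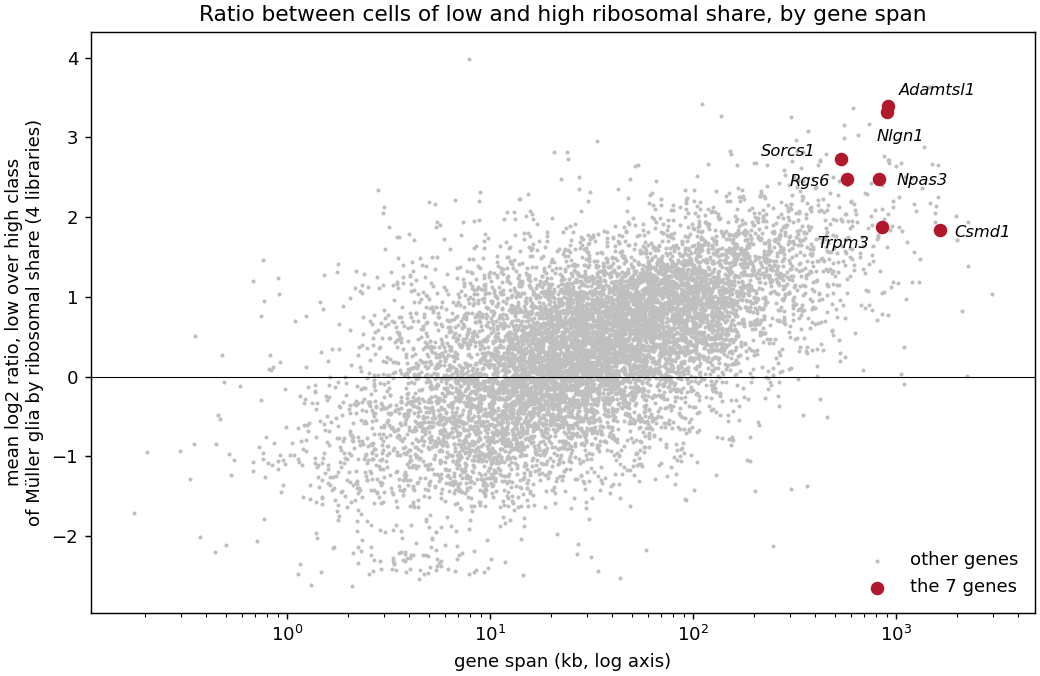
Each point is a gene with at least 10 CPM over both classes, placed by its span in kb (log axis) and by its mean log2 ratio of the low over the high class of MG by ribosomal share in 4 libraries. The 7 genes, in red, lie at 535 to 1643 kb and 1.84 to 3.40, above the line at 0, and shorter genes lie lower, with a median of -0.41 under 10 kb.

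The relatives of the 7 genes were mostly low in MG. Nrxn3, a neurexin and so a partner of Nlgn1, had 352 to 989 CPM. The short relatives Nlgn2 and Nlgn3, of 14.7 and 26.8 kb, had 26.7 to 33.8 and 14.3 to 22.1 CPM. Nrxn3, which spans 1612 kb, was 2.66 higher on the log2 scale in the low class, whereas Nlgn2 and Nlgn3 were 0.89 and 0.63 higher. Per 100 kb, Nlgn2 had 212 CPM, close to the 183 CPM of Nlgn1.

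Of the VPS10 receptors, Sorl1 had 230 to 416 CPM, Sort1 56.9 to 83.2 CPM and Sorcs2 26.9 to 58.9 CPM, and Sorcs3 had at most 1.18 CPM. The 3 that were measurable were 1.25 to 1.67 higher on the log2 scale in the low class. Of the R7 group of RGS proteins, Rgs9 had 29.4 to 93.8 CPM, and Gnb5, the beta subunit that binds and stabilises these proteins, had 26.3 to 63.1 CPM, while their differences on that scale were 0.16 and -0.29. Rgs7 had at most 12.9 CPM and Rgs11 at most 15.8 CPM, so Rgs6 was the main member of its group in these MG. Trpm7, a channel kinase, had 95.7 to 115 CPM, Csmd2 had 3.12 to 10.5 CPM and Csmd3 1.77 to 8.12 CPM. Adamtsl5 was the highest of 4 other ADAMTS-like genes, at 17.5 to 34.0 CPM, and Npas2 that of 3 other NPAS genes, at 3.98 to 15.8 CPM.

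A list of 55 other long adhesion and synaptic genes had 54 in the files, of which 36 had enough counts. All 36 were higher in the low class on average, 18 of them 2-fold or more in every library and none the other way. Their median was 1.92, against 0.39 over all genes, of which 5.50% were 2-fold or more higher in the low class in every library. The list has a median span of 1038 kb, and for the 150 genes of at least 500 kb the median was 1.76 and the share 45.3%. Counts were judged over both classes together, so a gene could enter through the low class alone. Whether the list differs from other genes of its length was not tested. Lsamp and Pcdh9, both adhesion proteins, were 3.03 and 2.76 higher, and Ptprd, a receptor phosphatase, 1.94. Of 6 measurable nuclear long noncoding RNAs all were higher in the low class on average, with a median of 2.40, and 1 was so by 2-fold in every library. Malat1 spans 7.89 kb and was 3.99 higher, so length was not common to all genes with the pattern. Of 12 short, abundant glial genes outside the gate none was 2-fold higher in the low class in every library, and their median was -0.27, with Apoe at -0.02 and Dbi, an acyl-CoA binding protein, at -1.51.

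Over 20 groups of cells, 4 libraries by 5 bins of ribosomal share, the 6 genes other than Csmd1 ran together, with Pearson's r of 0.961 to 0.990 between any pair. These groups share libraries, depth and the ribosomal gradient, so r is a description. Csmd1 had r of 0.410 to 0.513 with the other 6. The genes outside the 7 whose profile was most like their mean were Prkg1, Cpeb1, B3galt1, Rora and Slc35f1, with r of 0.994, 0.992, 0.991, 0.989 and 0.989 among 11934 genes. They span 1201, 108, 557, 734 and 421 kb. Between single MG of the low class, all thinned to 2000 UMIs, r over the 15 pairs of the 6 genes had a median of 0.26, 0.57, 0.26 and 0.60 over 396, 676, 236 and 310 cells.

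Within single cells several of the genes were seen at once. After thinning to 1000 UMIs, 49.3% and 31.8% of the MG in the low class with mKate2 AAV and 68.2% and 38.9% with Yap5SA AAV had UMIs of at least 4 of the 7 genes. In the high class 3.21%, 0.104%, 16.5% and 0.224% did. None of the 7 genes was seen in 1.60%, 24.7%, 0.375% and 21.7% of the low and in 42.1%, 46.5%, 39.3% and 38.0% of the high class.

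The low class was also the higher one in the neurons of the 1 library with enough of them to divide. In mKate2 AAV replicate 2 the low class of amacrine cells had 4908 CPM of the 7 genes together and the high class 3483 CPM, a difference of 0.49 on the log2 scale. Bipolar cells had 3614 and 2940 CPM, a difference of 0.30. The median ribosomal share was 1.80% in these amacrine and 1.99% in these bipolar cells but 11% in the MG of that library, so the classes do not cover the same range and their differences are not set against that of MG. The MG of that library went from 18178 CPM under 1% to 14102 CPM at 1 to 2%. In amacrine cells the difference was 1.72 for Adamtsl1 and 1.53 for Rgs6, but 0.27 for Nlgn1, 0.21 for Sorcs1 and 0.37 for Trpm3. In bipolar cells it was 2.15 for Rgs6 and 2.08 for Sorcs1, but 0.34 for Nlgn1, 0.07 for Adamtsl1 and 0.14 for Trpm3. Npas3 and Csmd1 lay between, at 0.84 and 0.60 in amacrine and 1.15 and 1.41 in bipolar cells. The values of Rgs6 and Sorcs1 in bipolar cells rest on 65 and 11 and on 141 and 34 UMIs.

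Microglia and macrophages, at low levels, had 303 and 30.6 CPM of the 7 genes together in Yap5SA AAV replicate 1, a difference of 3.11. These values rest on 164 and 21 UMIs in 52 cells a class, and in the high class only Trpm3 had more than 2 UMIs. In mKate2 AAV replicate 2 they had 224 and 128 CPM, from 608 and 179 UMIs, a difference of 0.79. Rods had 36.1 and 95.6 CPM in mKate2 AAV replicate 2 and 63.3 and 109 CPM in Yap5SA AAV replicate 3, the opposite direction for the sum. The sums in rods rest on few counts, 70 and 115 UMIs and 53 and 58 UMIs. Single genes went both ways in rods of Yap5SA AAV replicate 3, with -2.00 for Nlgn1 and -1.52 for Trpm3 but 1.14 for Rgs6 and 0.95 for Adamtsl1. The difference between cell types was not tested.

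No difference between the AAVs could be called within the low class or in the gradient. In the low class alone edgeR called 0 of 13883 genes, 0%. Without adjustment 38 genes had a p under 0.05 by edgeR and 37 by DESeq2, which also called 0. Here too both counts are below the share that this limit passes when no gene differs. The log2 fold change there was 0.35 with a standard error of 0.51 for Nlgn1, 0.18 with 0.43 for Trpm3 and -2.67 with 1.23 for Csmd1 (adjusted p = 1.00 by edgeR). The difference of the low-to-high ratio between AAVs was tested by limma over 14249 genes, of which 0 were called, 0%, and 57 had an unadjusted p under 0.05. It was 0.42 with a standard error of 0.92 for Rgs6, -0.06 with 0.63 for Trpm3 and -2.27 with 0.87 for Csmd1 (adjusted p = 1.00 by limma). For Csmd1 it was -0.99 without mKate2 AAV replicate 2 and -3.56 without mKate2 AAV replicate 1. Without a filter on low counts edgeR called Csmd1 in the low class, at -2.71 (adjusted p = 8.8e-08), with 83 of 23388 genes called, 0.355%, and without mKate2 AAV replicate 2 its difference there was 0.05.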

How the data were processed

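The authors deposited raw UMI counts per gene and cell from the 10x 3' v3.1 kit, made with Cell Ranger on GRCm39, 1 matrix a library. The labels name version 8.0.0, whereas the headers of mKate2 AAV replicate 2 and Yap5SA AAV replicate 3 name 9.0.1. Whether introns were counted is not given in the sources used here. There were 0 per-sample columns of other samples. Library totals ran from 13132765 to 50938304 UMIs in the 4 libraries used. Intervals cover counting error only.

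Members were matched by symbol. The members and lists were chosen with earlier results of these data known. Beside the 7 genes, values are given for at most 4 genes of each list, those with the most UMIs in MG, and for the 5 genes whose profile over library and ribosomal bin was most like that of the members. Some genes of these lists are not reported here by name. Cells were clustered with scanpy 1.11.5 (Leiden, resolution 1) and named from marker lists. No doublet caller was run. Bins had at least 20 cells, ratios used 5 CPM as pseudocount, and described contrasts included genes of at least 10 CPM. Counts summed per library were tested with edgeR 4.0.16 (quasi-likelihood, TMM, Benjamini-Hochberg adjusted p under 0.05), the low-to-high ratio with limma 3.58.1, and DESeq2 1.42.0 was an alternative. The edgeR test over all MG was run on simulated counts. A limma fit for the ratio was run on simulated noise that was not drawn from the measured spread. DESeq2 was not run on simulated data. The labels do not say that libraries of 1 group came from separate animals, so p-values measure the spread between these libraries, which may be technical. Gene models came from GENCODE on GRCm39 and the microRNA from RefSeq. Alternatives were the scaling, the filters, the MG gate, the depth and mitochondrial limits, the ribosomal limits, each library left out, and the replicate block, and the limit of 40000 UMIs was added after seeing the data.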

Additional observations from a re-analysis of the deposited data

How the results depend on the processing

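Between the AAVs, 0 genes were called in MG under all 11 alternatives, by DESeq2 in 1 of them and by edgeR in the rest, and with each library left out (0 to 0). In the low ribosomal class edgeR called 83 without the filter on low counts, Csmd1 at -2.71 among them, and 0 were called under the other alternatives, DESeq2 included, and with each library left out. The low-to-high ratio gave 0 calls throughout by limma. The sign of the small differences was not stable. A replicate block over all 5 libraries, in which Yap5SA AAV replicate 2 holds the cells of replicate 1, called 0 genes and gave -0.060 for Sorcs1, -0.16 for Adamtsl1 and -0.095 for Rgs6 in MG. The labels do not say that a number marks a shared batch, so the numbers were not taken to pair the samples. Deviations of same-numbered libraries correlated at 0.33 for replicate 1 and -0.34 for replicate 2, opposite signs that centring on 2 mKate2 AAV libraries and the shared cells of Yap5SA AAV replicates 1 and 2 impose, and those of libraries of the same Cell Ranger version at 0.35. Fixed ribosomal limits gave ratio differences of -0.071 for Nlgn1, 0.050 for Adamtsl1 and 0.0016 for Trpm3, and a denominator without ribosomal and mitochondrial genes gave 0.0050 for Trpm3. With each library left out, the MG difference ran from -0.070 to 0.49 for Sorcs1, -0.17 to 0.61 for Adamtsl1, -0.084 to 0.48 for Rgs6, -0.029 to 0.38 for Npas3 and -3.56 to -0.64 for Csmd1. In the low class it ran from -0.082 to 0.66 for Sorcs1, -0.26 to 0.70 for Adamtsl1, -0.084 to 0.56 for Rgs6, -0.053 to 0.68 for Npas3 and -3.55 to 0.053 for Csmd1. The ratio difference ran from -1.83 to 1.88 for Nlgn1, -1.52 to 1.07 for Sorcs1, -2.33 to 1.24 for Adamtsl1, -0.78 to 1.63 for Rgs6, -1.69 to 1.16 for Npas3, -0.71 to 0.59 for Trpm3 and -3.56 to -0.99 for Csmd1. The cause of these changes was not tested.

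The fall of the 7 genes together with ribosomal share kept its direction in all 10 other settings and stayed between 2.15 and 2.90 with each library left out. With MG taken by cluster instead of by gate, the log2 ratio of the 7 genes together was 5.11 against microglia and macrophages, 6.32 against rods, 1.44 against amacrine cells and 3.00 against pigment epithelium, where the gate gave 6.46, 6.75, 0.98 and 2.53. The share of MG with a UMI, as the median of the 7 genes averaged over libraries, was 42.9% at 2000 UMIs and 48.0% unthinned. The value at 2000 UMIs leaves out MG with fewer UMIs. Libraries of 2 a group limit every AAV comparison.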
